A study of Mus musculus with 12 samples.

Results

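The mitochondrial ribosomal protein genes are the nuclear genes for the proteins of the ribosome inside mitochondria. They were taken as every gene of the deposited table whose symbol begins with Mrpl or Mrps followed by a digit. This gave 78 of 14270 genes, 49 with Mrpl symbols (named for the large subunit) and 29 with Mrps symbols (named for the small subunit). All 78 had a mean of at least 1 FPKM (fragments per kilobase of transcript, scaled to the depth of the library) and were therefore tested, beside 9953 genes in all. The rule used symbols only and no expression value, but the set was chosen with earlier results of these data known.

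Mitochondria keep a small genome that encodes core subunits of the respiratory chain and ATP synthase, and these are made on ribosomes of their own. The RNA of these ribosomes is encoded in the mitochondria, but every one of their proteins is encoded in the nucleus, made in the cytosol and imported. Some of these proteins have a bacterial counterpart, and others were added during mitochondrial evolution. Skeletal muscle fibres use the respiratory chain for sustained work. The genes are usually transcribed from CpG-rich promoters, for which the factors NRF1, GABP and YY1 are known activators.

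RNA was sequenced from tibialis anterior, a fast muscle of the lower leg, in 12 mouse libraries that form 4 groups of 3: WT at ZT10, KO at ZT10, WT at ZT22 and KO at ZT22. KO stands for mice in which the REV-ERB receptors, haem-binding clock repressors, were knocked out in skeletal muscle only; the sources used here do not state which alleles were deleted, what drove the deletion, or the age, sex and strain. The titles give the times as ZT10 and ZT22, while the design text of the series gives ZT0 and ZT12, so the clock hour of each group is uncertain. The labels call the replicates separate samples and do not tie them to separate animals, so the p-values measure only the spread between these samples, which may be technical.

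A gene for a REV-ERB receptor did not go in the direction of the KO label. Nr1d1, which encodes REV-ERBα, stood at 27.6 to 37.0 FPKM in WT at ZT10 against 359 to 503 FPKM in libraries labelled KO, and at 38.0 to 54.0 against 328 to 369 FPKM at ZT22. Gene-level values do not show whether part of a transcript is missing, so KO below stands for the label. Among the WT ZT10 libraries, replicate 1 had the highest summed level of the mitochondrial ribosomal protein genes and replicate 2 the lowest, and results that rest on them are given without them as well. Read totals were not used here; a rough estimate from the steps between low values put the median member at 410 to 582 fragments in a library and the lowest at 45 to 63. The summed FPKM of all genes was 501839 to 549363 at ZT10 and 455742 to 470954 at ZT22, so a level at one time is not on quite the same footing as a level at the other.

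The 78 genes together were lowest in the libraries labelled KO at ZT22. Their FPKM summed to 4048, 3360 and 3559 in WT at ZT10, to 3708, 3807 and 3953 in KO at ZT10, to 3444, 3474 and 3473 in WT at ZT22, and to 3075, 3100 and 2939 in KO at ZT22. All 3 KO ZT22 libraries lay below the other 9, while the WT and KO libraries overlapped at ZT10. As a share of all summed FPKM, which does not depend on how a library was scaled, the genes made up 0.743% ± 0.009 in WT and 0.662% ± 0.015 in KO at ZT22 (SD, n = 3 each), again without overlap. At ZT10 the shares were 0.701% ± 0.038 and 0.707% ± 0.019; WT ZT10 replicate 2, at 0.669%, lay within the range of KO at ZT22. No test was run on these sums.

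**Figure D1:**
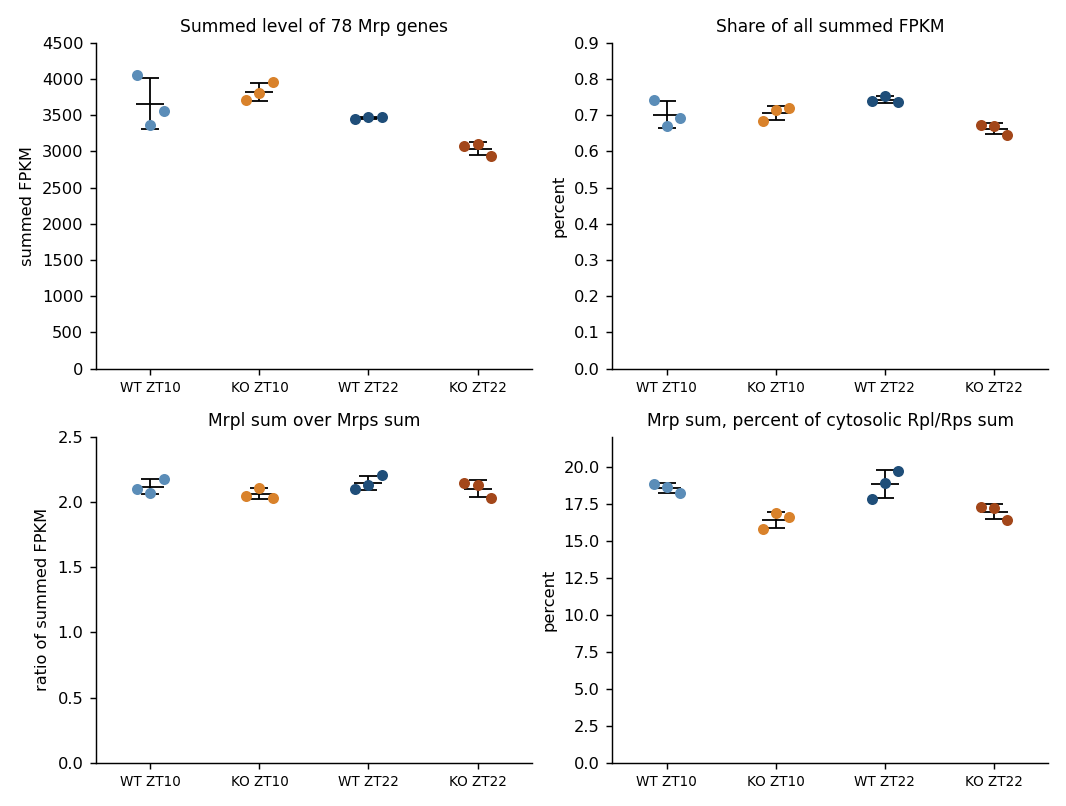
Each point is 1 library and the bars are the mean ± SD of 3 libraries, for the summed FPKM of the 78 genes, their percent of all summed FPKM, the ratio of the Mrpl to the Mrps sum, and their percent of the summed FPKM of 80 cytosolic ribosomal protein genes. The KO ZT22 libraries lie lowest in the summed FPKM and below the WT ZT22 libraries in the share, the ratio of the subunits stays between 2.03 and 2.21, and the KO libraries lie below the WT libraries of the same time in the last panel.

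The large and small subunits kept close to 1 ratio in every library. The Mrpl genes summed to 2.12 ± 0.06 times the Mrps genes in WT ZT10, 2.06 ± 0.04 in KO ZT10, 2.15 ± 0.06 in WT ZT22 and 2.10 ± 0.06 in KO ZT22 (SD, n = 3), and the ranges of all 4 groups overlapped. Set against the genes of the cytosolic ribosome, the 80 Rpl and Rps genes of the table, the ratio of the sums differed by genotype. Both sets enter this ratio. At ZT10 the median log2 difference of KO against WT (log2(FPKM + 1) scale) was 0.23 for the cytosolic and 0.06 for the mitochondrial set. At ZT22 it was -0.05 and -0.16. The mitochondrial set was 18.6% ± 0.32 of the cytosolic set in WT and 16.4% ± 0.54 in KO at ZT10, and 18.8% ± 0.95 and 17.0% ± 0.49 at ZT22, with no overlap of the genotypes at either time. Against the nuclear genes of the respiratory chain and ATP synthase the ratio differed by time. It was 9.12 to 9.29% in WT and 8.93 to 9.5% in KO at ZT10, and 10.3 to 10.4% in WT and 10.1 to 10.7% in KO at ZT22. From ZT10 to ZT22 the median log2 difference of the respiratory set was -0.20 in WT and -0.47 in KO. That of the mitochondrial ribosomal set was -0.06 and -0.26.

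Levels of single members spanned 2 orders of magnitude per length. The mean FPKM over 12 libraries had a median of 30.7 (32.3 for Mrpl and 28.5 for Mrps genes), against 7.7 for all genes tested. Of the 78 genes, 68 lay between 10 and 100 FPKM, 4 at or above 100 and 6 under 10. The highest was Mrpl42, a large-subunit protein with no bacterial counterpart, at 337 to 455 FPKM in the 12 libraries. It was followed by the small-subunit protein Mrps21 (157 to 235 FPKM), the large-subunit protein Mrpl30 (119.5 to 168), the stalk protein Mrpl12 (71.5 to 141.5) and Mrpl23, which sits at the exit of the peptide tunnel (76.6 to 129). Only Mrpl42 stood clear of its neighbour in that order; the ranges of the next 4 overlap one to the next. The lowest were Mrpl19 at 3.34 to 4.93, Mrpl17 at 5.29 to 7.40 and Mrps25 at 5.74 to 8.54 FPKM. Mrpl19 and Mrps25 are annotated with long transcripts (5000 and 6073 nt), and 36.0% and 69.8% of their exon bases also belong to the opposite-strand genes Gcfc2 and Nr2c2. The sources used here do not say if reads were assigned by strand, which leaves these 2 levels uncertain.

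At ZT22, 21 of the 78 genes were lower in KO than in WT and none was higher (limma, Benjamini-Hochberg adjusted p under 0.05 over all genes tested). Among all genes tested, 11.2% were lower and 7.13% were higher in this comparison. Of the members, 61 had a log2 difference below 0, and the median was -0.16, against -0.04 over all genes tested (log2(FPKM + 1) scale, here and below). Each of the 21 fell by a modest amount, between 17.4% and 33.5% of the WT mean with a median of 23.9%, and in each the 3 KO libraries lay below the 3 WT libraries. Over all 78, the groups did not overlap for 36 lower and 6 higher genes, against 23.1% and 18.3% of all genes tested. They include proteins of the catalytic core, the stalk, the tunnel exit and the small-subunit head.

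Mrps28, a small-subunit protein related to a bacterial one, had the smallest adjusted p at ZT22. It stood at 41.0, 36.1 and 38.5 FPKM in WT and 25.9, 25.6 and 25.8 FPKM in KO. The KO values lay within 0.3 FPKM of each other and far below the WT values (log2 difference -0.56 ± 0.08 SE, limma adjusted p = 0.000717). Mrpl12, the homologue of the bacterial stalk protein, which recruits translation factors and is also known to bind the mitochondrial RNA polymerase, stood at 99.2, 103.8 and 103.9 FPKM in WT and 73.5, 71.5 and 72.8 FPKM in KO (-0.49 ± 0.08, adjusted p = 0.00142). Mrpl2, a protein near the peptidyl transferase centre, was at 59.1, 55.9 and 53.3 FPKM in WT and 38.6, 39.8 and 38.4 FPKM in KO (-0.52 ± 0.08, adjusted p = 0.00147). For both, every KO library was below every WT library, with little spread within KO.

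Mrpl27, which reaches toward the peptidyl transferase centre in bacteria, was at 33.2, 33.5 and 30.7 FPKM in WT and 21.3, 24.1 and 23.2 FPKM in KO (-0.49 ± 0.08, limma adjusted p = 0.00192). Mrpl45, which anchors the ribosome to the inner membrane near the tunnel exit, was at 30.4, 33.6 and 32.5 FPKM in WT and 23.7, 24.4 and 21.6 FPKM in KO (-0.45 ± 0.09, adjusted p = 0.00577). Mrpl21 was at 25.6, 25.7 and 22.8 FPKM in WT and 19.1, 18.9 and 19.1 FPKM in KO (-0.36 ± 0.08, adjusted p = 0.00803). These 6 lie in GRCm38 at chr3:8802146-8923918 (Mrps28), chr11:120484613-120489065 (Mrpl12), chr17:46646229-46650139 (Mrpl2), chr11:94653767-94660089 (Mrpl27), chr11:97315716-97329920 (Mrpl45) and chr19:3282901-3292837 (Mrpl21). At ZT10 the WT and KO values of all 6 overlapped and none of the 6 was called.

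**Figure D2:**
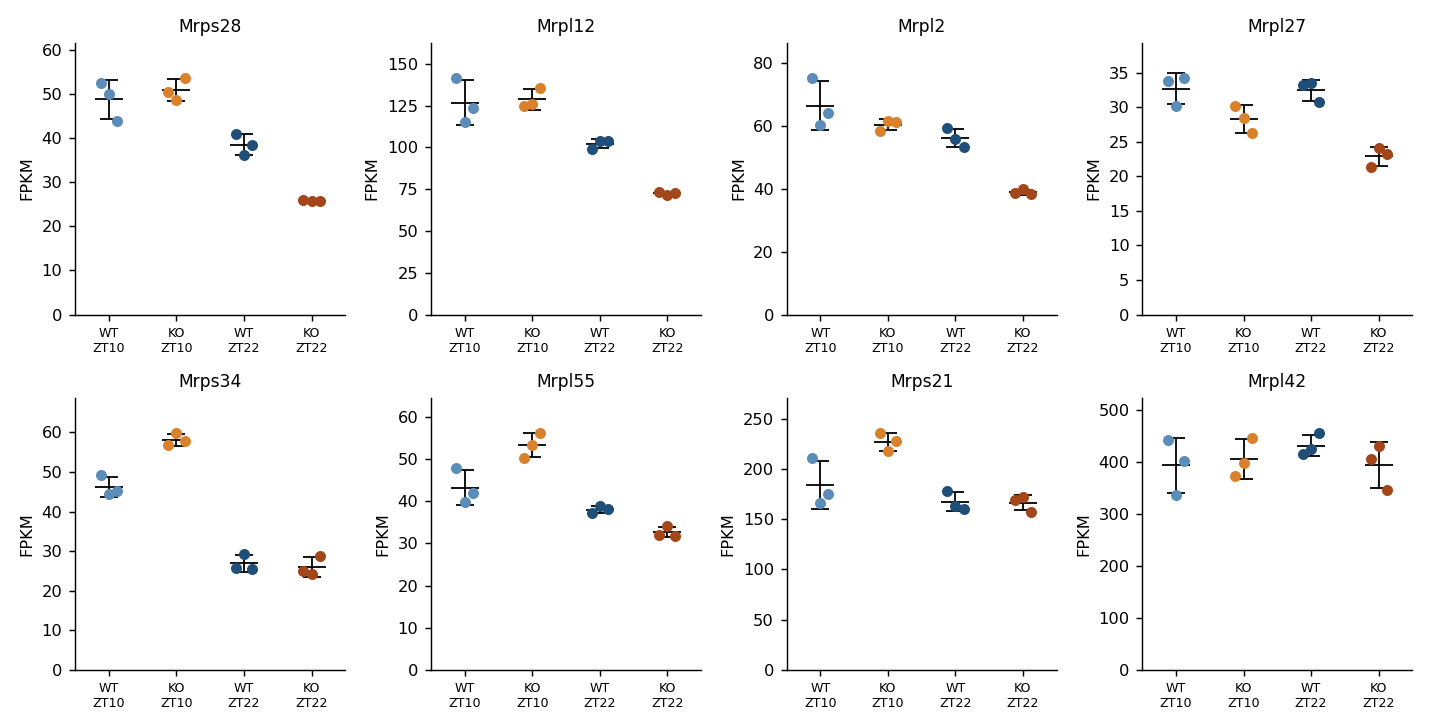
FPKM of 8 genes in each library (points), with the mean ± SD of 3 libraries, by genotype label and time. Mrps28, Mrpl12, Mrpl2 and Mrpl27 are lowest in KO at ZT22, Mrps34, Mrpl55 and Mrps21 are highest in KO at ZT10, and Mrpl42 overlaps in all 4 groups.

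The other 15 members lower at ZT22 were Mrpl4, Mrpl28, Mrpl37, Mrpl38, Mrpl46, Mrpl48, Mrpl51, Mrpl52, Mrpl53, Mrpl54, Mrps7, Mrps10, Mrps18a, Mrps26 and Mrps36, with adjusted p from 0.00823 to 0.0487. Of all 21, 9 remained lower and called under every alternative that was run and without each library in turn: the 6 described above, Mrpl28, Mrpl54 and Mrps36. Leaving out WT ZT22 replicate 1 gave 13 genes and leaving out WT ZT22 replicate 2 gave 11, while KO ZT22 replicate 1 left out gave 11 and KO ZT22 replicate 2 left out gave 12, all lower. Under median-of-ratios scaling 1 was higher and 11 were lower, and with a transcript length trend removed 4 were higher and 14 lower. Of the 60 members without a near-copy pseudogene (at least 95% identity over 200 nt), 14 were lower, and of the 61 that share under 10% of their exon bases with another gene, 18 were lower. The members with near-copies among those named are Mrpl21, Mrpl23, Mrpl27, Mrpl30, Mrpl41, Mrpl42, Mrpl48, Mrpl51, Mrps10, Mrps16, Mrps18b, Mrps21, Mrps25, Mrps26 and Mrps36, and the sources used here do not say how their reads were shared out. No such pseudogene had an entry in the table.

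At ZT10, 6 of the 78 genes (7.7%) were higher in KO than in WT and none was lower (limma adjusted p under 0.05). Among all genes tested, 5.36% were higher, which is near the share of the members, and 8.96% were lower. The median of the members was 0.06 and that of all genes tested -0.05. The 6 were Mrpl16, Mrps34, Mrpl36, Mrpl55, Mrpl10 and Mrps21, and they rose by 22.8% to 26.4% of the WT mean. Mrpl16, a core large-subunit protein, stood at 31.6, 29.9 and 34.4 FPKM in WT and 37.4, 39.8 and 41.0 FPKM in KO (log2 difference 0.29 ± 0.08, adjusted p = 0.0218). The small-subunit protein Mrps34, which has no bacterial counterpart, stood at 49.1, 44.3 and 45.1 FPKM in WT and 56.8, 59.8 and 57.8 FPKM in KO (0.33 ± 0.09, adjusted p = 0.0241). In both the genotypes did not overlap. Over all 78, the groups did not overlap at ZT10 for 17 higher and 3 lower genes, against 11.1% and 19.1% of all genes tested.

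Mrpl10, which anchors the stalk to the large subunit, was at 27.3, 24.6 and 27.6 FPKM in WT and 32.1, 33.3 and 35.2 FPKM in KO (0.33 ± 0.09, limma adjusted p = 0.028). Mrpl12, the stalk protein that it holds, was at 141.5, 115 and 123 FPKM in WT and 125, 126 and 136 FPKM in KO, and did not pass (0.03 ± 0.08, adjusted p = 0.859). Mrpl36 and Mrpl55 were higher by 0.29 ± 0.08 and 0.30 ± 0.08 (adjusted p = 0.0242 and 0.0267), and Mrps21 by 0.31 ± 0.09 (adjusted p = 0.0375). Of the exon bases of Mrps34, 63.4% are shared with Mapk8ip3 on the opposite strand and 37.0% with Nme3 on the same strand.

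These 6 calls at ZT10 were not stable. The count was 14 higher without WT ZT10 replicate 1, 0 higher and 1 lower without WT ZT10 replicate 2, and 1 higher without WT ZT10 replicate 3 or without KO ZT10 replicate 2. It was 3 without KO ZT10 replicate 3. With only the 6 libraries of that time in the fit it was 0, and with every library scaled to equal summed FPKM it was 2 higher and 2 lower. None of the 6 remained called without each library in turn.

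The genotype difference moved downward from ZT10 to ZT22 in 70 of the 78 genes, by a median of -0.21, against 0.00 over all genes tested. In the test of this difference between times, 0 members passed by limma (0.0402% of all genes tested, 4 of 9953, did, 0.0201% in each direction), and 27 members were at an unadjusted p under 0.05, as were 1696 of all genes tested. The smallest p-values were those of Mrps28 (-0.62 ± 0.12, limma adjusted p = 0.0676), Mrpl28 (-0.60 ± 0.13, adjusted p = 0.0729) and Mrpl12 (-0.51 ± 0.11, adjusted p = 0.0763). Without WT ZT10 replicate 1, 5 members passed, all lower, while 0 passed without WT ZT10 replicate 2 or without WT ZT10 replicate 3. No member was both called higher at ZT10 and called lower at ZT22. The KO libraries lay wholly above WT at ZT10 and wholly below WT at ZT22 for 4 members, against 0.633% of all genes tested (63 of 9953), and the reverse held for 0 members, against 1% (100 of 9953).

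**Figure D3:**
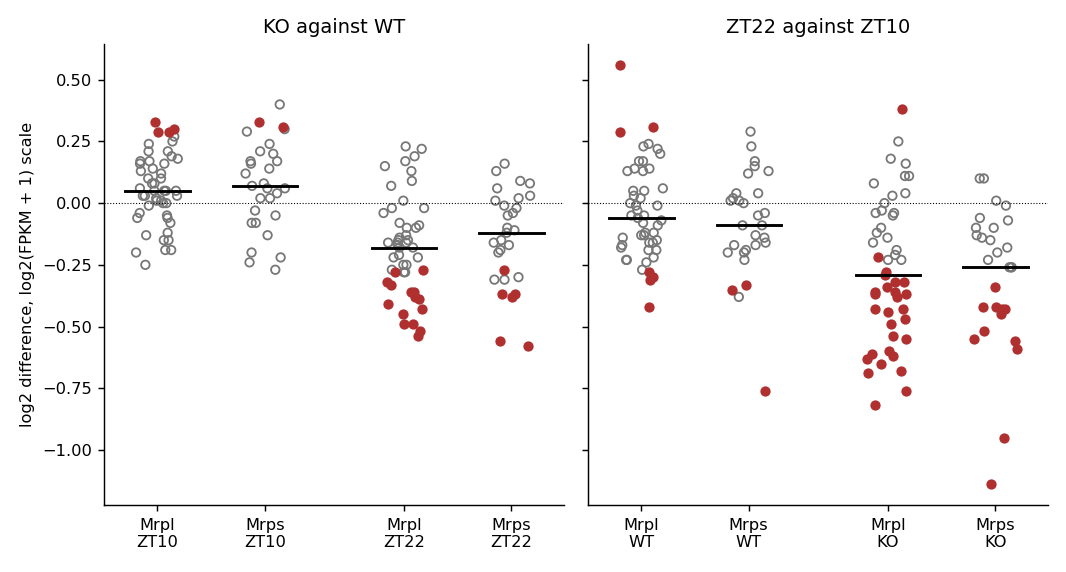
Each point is 1 gene, with its log2 difference on the log2(FPKM + 1) scale between KO and WT (left, at each time) and between ZT22 and ZT10 (right, in each genotype), for 49 Mrpl and 29 Mrps genes. Filled points passed limma at an adjusted p under 0.05, open points did not, and black lines are medians; at ZT22 the called genes are all below 0, and the median of all 78 genes over time in WT, -0.06, is 0.08 when libraries are scaled to equal summed FPKM.

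Most calls among the members came from the comparison of times in the libraries labelled KO. There, 39 of the 78 genes were lower at ZT22 than at ZT10 and 1 was higher (limma adjusted p under 0.05), against 13.7% lower and 28.9% higher among all genes tested, and the median was -0.26 against 0.11. The 39 fell by 14.8% to 55.4%, and in each the 3 libraries of one time lay wholly below those of the other. Groups that do not overlap made up 34.5% higher and 16.7% lower of all genes tested in KO, and 30.2% and 13.4% in WT. In WT, 7 were lower and 3 higher, against 5.77% lower and 18.4% higher among all genes tested, with a median of -0.06 against 0.09. The KO groups of this comparison are also those compared with WT above, so the calls share libraries: 17 of the 21 genes lower in KO at ZT22 are among the 39.

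Mrps34 had the smallest adjusted p over time in both genotypes. It went from 49.1, 44.3 and 45.1 FPKM at ZT10 to 25.8, 29.4 and 25.5 FPKM at ZT22 in WT, and from 56.8, 59.8 and 57.8 to 24.9, 24.2 and 28.7 FPKM in KO. The times did not overlap in either genotype, with log2 differences of -0.76 ± 0.09 in WT (limma adjusted p = 0.000211) and -1.14 ± 0.09 in KO (adjusted p = 8.09e-06). Mrps28 fell in KO from 50.4, 48.7 and 53.6 to 25.9, 25.6 and 25.8 FPKM (-0.95 ± 0.08, adjusted p = 1.27e-05), and in WT from 52.5, 50.1 and 44.0 to 41.0, 36.1 and 38.5 FPKM (-0.33 ± 0.08, adjusted p = 0.0123). Mrpl12 fell in KO from 125, 126 and 136 to 73.5, 71.5 and 72.8 FPKM (-0.82 ± 0.08, adjusted p = 2.79e-05) and in WT by 0.30 ± 0.08 on the log2 scale (adjusted p = 0.0166).

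Other members fell over time in KO without passing in WT. Mrpl55 went from 50.4, 53.3 and 56.1 to 32.1, 34.1 and 31.8 FPKM (-0.69 ± 0.08, limma adjusted p = 7.35e-05). The large-subunit protein Mrpl28 went from 49.6, 49.9 and 55.4 to 33.2, 29.8 and 27.4 FPKM (-0.76 ± 0.09, adjusted p = 8.16e-05), and Mrps7, a protein of the small-subunit head, from 56.3, 58.1 and 62.2 to 40.6, 38.3 and 40.1 FPKM (-0.56 ± 0.07, adjusted p = 0.000152). In WT the values of Mrps7 were 55.4, 50.7 and 47.5 FPKM at ZT10 and 47.0, 48.3 and 48.7 FPKM at ZT22, which overlap. The test of the difference between times and genotypes did not pass for these 3 genes, so the genotypes are not shown to differ in their change over time.

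In WT the genes lower at ZT22, beside Mrps34, Mrps28 and Mrpl12, were Mrpl20 (-0.42 ± 0.09, limma adjusted p = 0.00513), Mrps16 (-0.35 ± 0.09, adjusted p = 0.0137), Mrpl23 (-0.31 ± 0.09, adjusted p = 0.0233) and Mrpl51, and all 7 were also lower over time in KO. The 3 higher genes were Mrpl39 (0.29 ± 0.09, adjusted p = 0.0268), Mrpl15 (0.56 ± 0.16, adjusted p = 0.0277) and Mrpl41 (0.31 ± 0.10, adjusted p = 0.0404). Mrpl41 was the only member higher over time in both genotypes, from 8.34, 7.51 and 7.79 to 9.97, 10.7 and 9.46 FPKM in WT and from 9.06, 9.87 and 7.84 to 11.28, 11.01 and 13.36 FPKM in KO; it did not pass in either under median-of-ratios scaling. Only Mrps34 and Mrpl20 remained called in WT without each library in turn. With WT ZT10 replicate 1 left out, 3 genes were higher and 2 lower. Without WT ZT10 replicate 2 the counts were 0 higher and 11 lower, and without WT ZT10 replicate 3 they were 0 and 8. Leaving out WT ZT22 replicate 1 gave 1 higher and 4 lower, and leaving out WT ZT22 replicate 2 gave 1 higher and 3 lower.

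Directions over time depend on the scaling of the libraries. Median-of-ratios scaling, which sets the typical gene level equal, moved the median of all genes tested from 0.09 to -0.04 in WT and from 0.11 to -0.02 in KO, and scaling to equal summed FPKM moved it to 0.23 and 0.30. The members moved with it. In WT their median was -0.21 with 25 lower and 0 higher under the first, and 0.08 with 2 lower and 17 higher under the second, so the direction over time in WT flips with the scaling. In KO their median was -0.41 (56 lower, 0 higher) and -0.03 (21 lower, 12 higher); in both, the members' median lay below that of all genes tested. Of the 39 falls in KO, 21 were called under all alternatives and without each library in turn, among them Mrps34, Mrps28, Mrpl12, Mrpl55, Mrpl28 and Mrps7.

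Symbol and place in the ribosome do not match for 3 members. Mrps30 and Mrps18a are known to be parts of the large subunit, and Mrps36 is known as a subunit of the 2-oxoglutarate dehydrogenase complex rather than of the ribosome. Counted by place, 16 of 51 large-subunit and 4 of 26 small-subunit genes were lower in KO at ZT22, with medians of -0.18 and -0.11; counted by symbol these were 15 of 49 and 6 of 29, with medians of -0.18 and -0.12. These are 31.4% and 15.4% by place and 30.6% and 20.7% by symbol, against 11.2% of all genes tested. The difference between the subunits was not tested. Mrps36 was at 115.5, 126 and 111 FPKM in WT and 79.0, 81.2 and 74.2 FPKM in KO at ZT22 (-0.58 ± 0.13, limma adjusted p = 0.00828). Its WT and KO libraries did not overlap then and did overlap at ZT10 (-0.20 ± 0.13, adjusted p = 0.329). Mrps30 was at 22.8, 23.3 and 20.4 FPKM in WT and 20.5, 21.4 and 22.9 FPKM in KO at ZT22 and did not pass in any comparison.

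The Mrps18 genes are paralogues whose products occupy different places. Mrps18a, of the large subunit, was at 69.8, 70.0 and 71.3 FPKM in WT and 52.2, 50.3 and 59.8 FPKM in KO at ZT22 (-0.38 ± 0.10, limma adjusted p = 0.0198), and its genotypes did not overlap at ZT10 either (-0.27 ± 0.10, adjusted p = 0.0867). At ZT10, 19.1% of all genes tested were likewise lower in KO without overlap. Mrps18b, of the small subunit, differed by -0.10 ± 0.15 at ZT22 (adjusted p = 0.696), and Mrps18c, the closest counterpart of the bacterial protein, by -0.30 ± 0.10 (adjusted p = 0.0554). Mrpl32, whose precursor must be cut by the m-AAA protease before it joins the ribosome, went the other way at ZT22, at 39.97, 36.91 and 38.52 FPKM in WT and 45.9, 48.2 and 42.1 FPKM in KO; the groups did not overlap, and the test did not pass (0.23 ± 0.09, adjusted p = 0.0823). A transcript of Gm6578 matches Mrpl32 at 95% identity over 760 nt, so reads of Mrpl32 may be split.

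Among large-subunit genes (by place), 10 of 21 without a bacterial counterpart were lower in KO at ZT22, with a median of -0.25, and 6 of 30 with one, with a median of -0.15. Among small-subunit genes the counts were 1 of 10 and 3 of 16, with medians of -0.02 and -0.15. Differences between the classes were not tested. Over time in KO the 4 classes had 11 of 21, 17 of 30, 5 of 10 and 6 of 16 lower, against 13.7% of all genes tested. At ZT10 the 6 rises were 4 large-subunit and 1 small-subunit genes with a bacterial counterpart and 1 small-subunit gene without one.

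The cytosolic ribosomal protein genes and the respiratory chain genes were read in the same fit for comparison. At ZT10, 20 of 80 cytosolic ribosomal protein genes were higher in KO and none lower, with a median of 0.23. At ZT22, 1 was higher and 2 were lower, with a median of -0.05, where the mitochondrial ribosomal protein genes had 0 and 21. Of 81 nuclear respiratory chain and ATP synthase genes tested, 1 was higher at ZT10, and 25 were lower and none higher at ZT22, with a median of -0.22. Over time in KO, 47 of 80 and 52 of 81 were lower. The shares over all genes tested were 5.36% higher and 8.96% lower at ZT10, and 7.13% higher and 11.2% lower at ZT22. Over time in KO, 13.7% were lower. No difference between these lists and the members was tested.

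**Figure D4:**
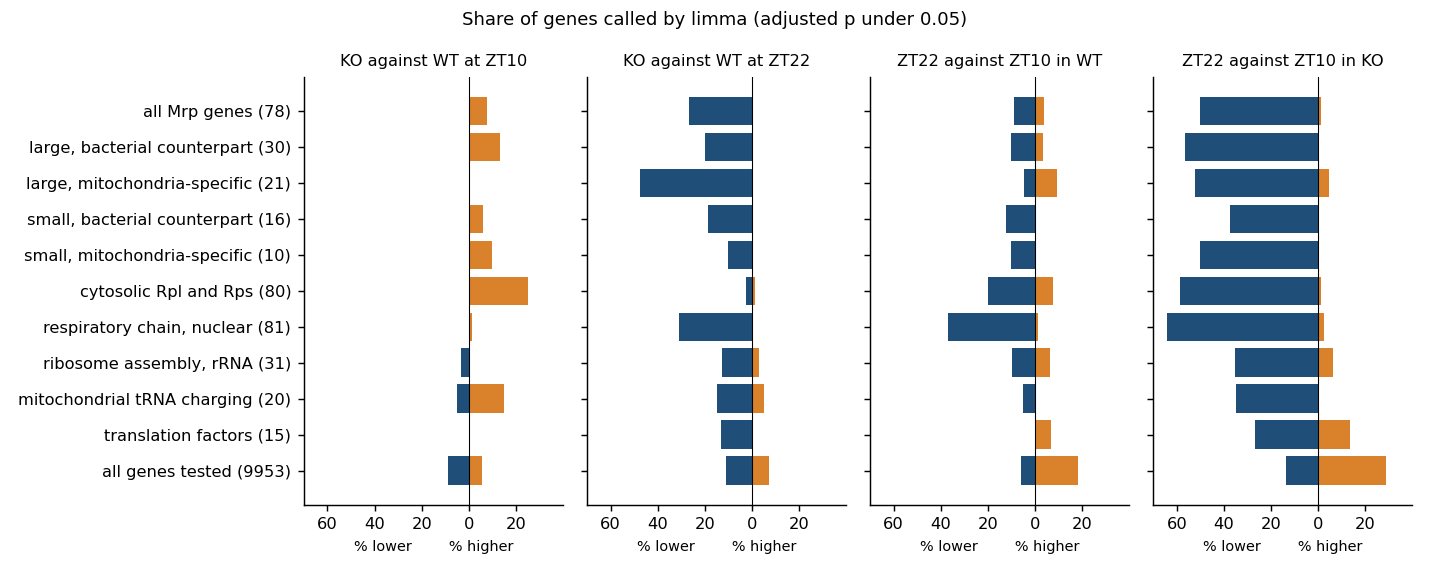
Bars give the percent of tested genes (number in brackets) called higher (orange, right) or lower (blue, left) by limma at an adjusted p under 0.05, for the 78 genes, their 4 classes, related lists and all genes tested, in 4 comparisons. At ZT22 the members have 26.9% lower and 0 higher in KO against WT, and at ZT10 none lower; in WT over time the split of the members turns with the scaling, from 3 higher and 7 lower to 17 higher and 2 lower with equal summed FPKM.

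Transcript length was set beside the differences. The members are short, with a median annotated transcript length of 1051.5 nt (1134 nt for Mrpl and 1018 nt for Mrps genes), against 2116.5 nt for all genes tested. Across all genes tested, the log2 difference over time rose with log2 length, with Pearson's r of 0.26 in WT and 0.36 in KO over 9903 genes, which are not independent replicates. For KO against WT it was -0.09 at ZT10 and 0.07 at ZT22. Among the 78 members these correlations were 0.21, 0.24, 0.01 and 0.14; all genes share the same 12 libraries, so they are descriptions only.

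Length and members can be set side by side within length classes. Under 1000 nt, 11 of 36 members were lower in KO at ZT22 with a median of -0.16, against a median of -0.07 over the 1900 genes tested of that length, 13.1% of which were lower. Between 1000 and 2000 nt, 8 of 24 were lower with a median of -0.21, against -0.07 and 13.2%. At 2000 nt or more, 2 of 18 were lower with a median of -0.14, against -0.01 and 9.6%. Over time in KO the medians of the members in these classes were -0.33, -0.33 and -0.10, against -0.09, -0.01 and 0.22 for all genes of the same length. Removing the length trend from each library left 14 of the 21 falls at ZT22 and 37 of the 39 falls over time in KO, and gave 10 rises at ZT10.

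**Figure D5:**
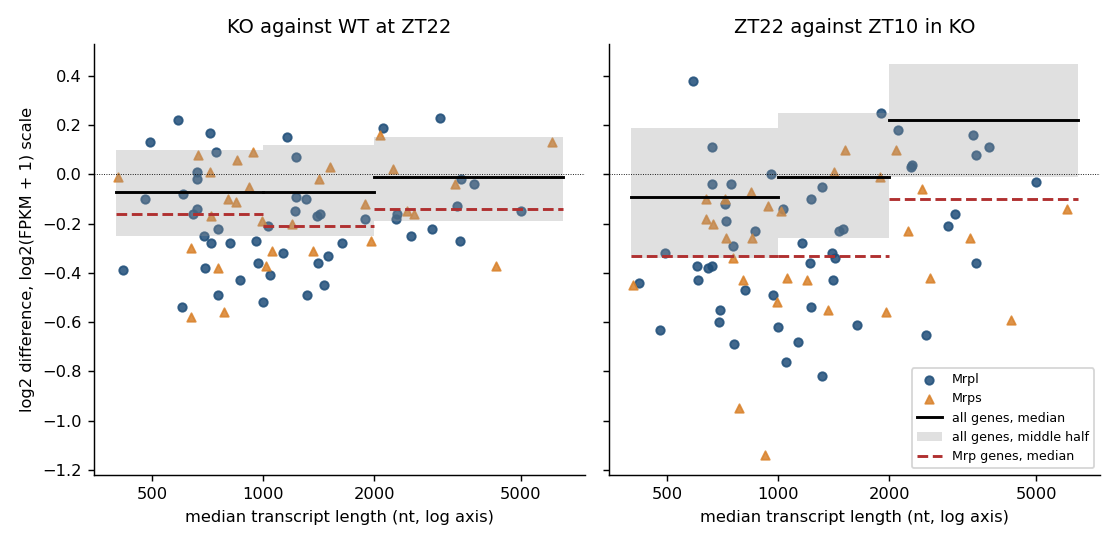
Log2 difference on the log2(FPKM + 1) scale of each of the 78 genes against its median annotated transcript length (log axis), for KO against WT at ZT22 and for ZT22 against ZT10 in KO; circles are Mrpl and triangles Mrps genes. Solid lines and grey bands are the median and interquartile range of all genes in 3 length classes, and dashed lines are the medians of the members, which lie below the solid lines in each class.

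Other genes of mitochondrial translation were read in the same fit. Of 5 tested ribosomal proteins with other symbols, Aurkaip1 was higher in KO at ZT10 (49.4, 44.0 and 43.9 FPKM in WT, 63.5, 61.8 and 84.3 FPKM in KO; 0.59 ± 0.11, limma adjusted p = 0.0033). Gadd45gip1 was lower at ZT22 (24.9, 21.3 and 24.3 FPKM in WT, 17.1, 16.2 and 14.8 FPKM in KO; -0.52 ± 0.11, adjusted p = 0.00631). Of 31 genes for assembly and rRNA handling, 4 (12.9%) were lower and 1 (3.2%) was higher at ZT22, near the shares over all genes tested, and 1 was lower at ZT10. The rRNA and tRNA methyltransferase Trmt2b was lower at both times, by 0.77 ± 0.15 on the log2 scale at each (adjusted p = 0.00451 and 0.00421). Nsun4, which methylates the small-subunit rRNA, was lower at ZT22 (-0.52 ± 0.15, adjusted p = 0.0296), and Mterf3 was higher (0.34 ± 0.08, adjusted p = 0.0157).

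Of 20 genes that charge mitochondrial tRNAs, 3 (15.0%) were higher and 1 (5.0%) lower at ZT10, against 5.36% and 8.96% of all genes tested. At ZT22, 1 (5.0%) was higher and 3 (15.0%) lower, against 7.13% and 11.2% of all genes tested. Gatb, a subunit of the glutamyl-tRNA amidotransferase, was higher at both times, by 0.79 ± 0.12 and 0.63 ± 0.12 (limma adjusted p = 0.00106 and 0.00408), and the alanyl-tRNA synthetase Aars2 was lower at ZT22 (-0.47 ± 0.10, adjusted p = 0.00616). Of 15 translation factors tested, none passed at ZT10 (3 at an unadjusted p under 0.05, limma). At ZT22, 2 (13.3%) were lower, near the share over all genes tested. These were the elongation factor Tsfm (-0.44 ± 0.10, limma adjusted p = 0.00982) and the release factor Mtrf1l (-0.36 ± 0.10, adjusted p = 0.029). Of 5 genes of mitochondrial transcription, the polymerase Polrmt, which Mrpl12 is known to bind, was lower at ZT22 (-0.31 ± 0.09, adjusted p = 0.026), as was Mterf2 (-0.60 ± 0.14, adjusted p = 0.0122), and the transcription factor Tfb2m was higher (0.36 ± 0.10, adjusted p = 0.0213).

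Of 8 regulators of nuclear genes for mitochondria, only Esrra passed between genotypes. This nuclear receptor was at 56.4, 51.1 and 51.8 FPKM in WT and 47.00, 44.97 and 35.96 FPKM in KO at ZT10 (-0.32 ± 0.10, limma adjusted p = 0.049), and at 40.1, 44.7 and 39.0 FPKM in WT and 28.6, 27.9 and 27.7 FPKM in KO at ZT22 (-0.54 ± 0.10, adjusted p = 0.00305). The KO libraries lay below the WT libraries at both times. Of all genes tested, 19.1% were lower without overlap at ZT10 and 23.1% at ZT22. The 1 gene called is 12.5% of the 8 at each time, near the 8.96% and 11.2% of all genes called lower. Nrf1, Gabpa, Gabpb1, Yy1, Ppargc1a, Ppargc1b and Myc did not pass between genotypes at either time. Over time in KO, 3 of the 8 were higher and 1 lower, against 28.9% and 13.7% of all genes tested. In WT 1 was higher and 1 lower, against 18.4% and 5.77%.

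Promoters of the members were compared with all RefSeq promoter windows (GRCm38.p6, 250 bases before to 50 after a start), of which 75 belong to 69 of the 78 genes. Letters were searched on both strands, and in the windows of the members no match of one motif overlapped that of another. The NRF1 site (GCGCA, any base, GCGC) was found in 17.3% of the members' windows and 4.60% of 32851 windows, the ETS site bound by GABP (CCGGAAG) in 34.7% and 8.86%, and the YY1 site (AA, any base, ATGG, CGGC) in 9.3% and 0.99%. The half-site shared by REV-ERB and ROR receptors (TAGGTCA) was found in 1 of the members' windows, that of Mrpl53 (1.3% against 2.61%), and the E-box (CACGTG) in 9.3% against 7.15%. Some genes have several overlapping windows: 3 of the 7 windows with an E-box are those of Mrpl2. Counted once per gene, the E-box was found in 5 of 69 members (7.25%) and 8.09% of 27025 genes, the NRF1 site in 18.8% and 5.19%, the ETS site in 37.7% and 9.93%, the YY1 site in 10.1% and 1.17%, and the half-site in 1.45% and 2.97%. The members' windows are also richer in CpG, with a median of 21 against 7, and in GC, at 58.7% against 52.7%. The part of base composition in these shares was not tested.

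The 250 bases before the start are shown for 4 of the genes lower in KO at ZT22, on the plus strand, with matches in capitals: Mrpl12 (chr11:120484387-120484636, an NRF1 match 81 bases before the start), Mrpl45 (chr11:97315466-97315715, NRF1 matches at 120 and 38), Mrpl27 (chr11:94653541-94653790, an ETS match at 55) and Mrpl53 (chr6:83108858-83109107, the half-site at 228 and ETS matches at 59 and 16).
Mrpl12: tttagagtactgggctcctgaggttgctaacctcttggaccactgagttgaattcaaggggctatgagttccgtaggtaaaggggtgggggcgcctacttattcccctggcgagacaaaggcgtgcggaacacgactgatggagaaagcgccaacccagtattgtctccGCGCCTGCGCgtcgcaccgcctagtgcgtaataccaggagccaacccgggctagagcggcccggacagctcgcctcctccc
Mrpl45: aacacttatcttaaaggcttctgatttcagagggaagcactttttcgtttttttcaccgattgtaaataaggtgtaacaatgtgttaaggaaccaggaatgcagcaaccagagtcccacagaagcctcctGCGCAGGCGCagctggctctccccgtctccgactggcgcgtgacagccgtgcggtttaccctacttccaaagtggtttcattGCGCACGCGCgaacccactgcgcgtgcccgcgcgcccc
Mrpl27: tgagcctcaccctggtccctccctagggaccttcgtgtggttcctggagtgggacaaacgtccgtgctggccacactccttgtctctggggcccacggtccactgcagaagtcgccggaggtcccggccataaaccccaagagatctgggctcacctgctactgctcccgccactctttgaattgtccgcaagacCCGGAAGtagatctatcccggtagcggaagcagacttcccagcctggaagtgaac
Mrpl53: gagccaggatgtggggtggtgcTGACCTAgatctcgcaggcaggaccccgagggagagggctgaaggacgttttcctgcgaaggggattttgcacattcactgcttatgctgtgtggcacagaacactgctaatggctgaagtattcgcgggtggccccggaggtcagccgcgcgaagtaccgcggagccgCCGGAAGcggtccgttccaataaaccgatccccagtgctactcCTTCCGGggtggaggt

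The change at ZT22 is given beside these matches as a description. Over all genes tested, 11.2% were lower in KO at that time. Of 26 members with an ETS match, 8 were lower in KO at ZT22, with a median of -0.21, and of 43 without one, 9 were lower, with a median of -0.12. For the NRF1 site 3 of 13 with it and 14 of 56 without it were lower, with medians of -0.16 and -0.15, and for the YY1 site 3 of 7 and 14 of 62, with medians of -0.31 and -0.15. Mrpl53, with the half-site, was at 44.3, 42.7 and 46.8 FPKM in WT and 36.9, 31.4 and 33.8 FPKM in KO at ZT22 (-0.38 ± 0.12, limma adjusted p = 0.0399), and 88.0% of its exon bases are shared with Gm42688 on the same strand. Of 68 members with a window but no half-site, 16 were lower.

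The authors' deposited table gives its own q-values for the same 4 comparisons. In the authors' deposited table at q under 0.05, 0 members differed in KO against WT at ZT10 (3.60% of its genes were higher and 3.20% lower), and 8 were higher and 48 lower at ZT22 (22.9% higher and 32.0% lower). For time, the authors' deposited table has 6 members lower in WT and 38 lower in KO and none higher, where 7.49% and 10.5% of its genes were lower and 6.97% and 10.4% higher.

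Markers of cell types were read beside these results, since in whole muscle fewer cells of a type and less RNA per cell cannot be told apart. Summed FPKM of 7 muscle fibre markers was higher in KO than in WT, at 91038 to 95743 against 74009 to 83921 at ZT10 and 66927 to 69606 against 54946 to 61267 at ZT22. The most abundant markers carry this sum, and the 7 did not move together: at ZT10 Ckm and Myh4 were higher and Myh1, a fast myosin, was lower (-0.89 ± 0.23, limma adjusted p = 0.0205), and at ZT22 Tnnt3 was higher and Myh1 lower (-0.91 ± 0.23, adjusted p = 0.0157). The sum of 5 slow fibre markers overlapped between genotypes at both times, but 1 of them, the slow myosin light chain Myl2, was at 1.56, 2.94 and 0.47 FPKM in WT and 16.9, 22.7 and 55.4 FPKM in KO at ZT10 (3.55 ± 0.72, adjusted p = 0.00575). The 5 endothelial markers were at 75 to 85.4 in KO and 83.8 to 107 in WT at ZT22, where Kdr was lower (-0.46 ± 0.13, adjusted p = 0.0319), and at 40.4 to 56.5 in both at ZT10.

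The 4 Schwann cell markers were at 15.3 to 17.6 in KO and 8.6 to 12.4 in WT at ZT10, and overlapped at ZT22, at 16 to 18.5 and 9.7 to 16.9. Of these, only 2 were abundant enough to be tested, and they did not move together. Mbp was higher at both times (1.14 ± 0.18 and 0.84 ± 0.18, limma adjusted p = 0.00125 and 0.00745). The other differed by -0.03 at ZT10 and -0.37 at ZT22 and did not pass. The 5 adipocyte markers were at 19.1 to 35.6 in KO and 10 to 18.4 in WT at ZT10, and at 9.1 to 16.9 in KO and 18.3 to 30.1 in WT at ZT22. The 4 satellite cell markers were at 2 to 2.8 in KO and 2.8 to 3 in WT at ZT10, and at 3.4 to 3.6 in KO and 2.2 to 3.2 in WT at ZT22. Of these only Vcam1 was abundant enough to be tested, at -0.18 ± 0.12 at ZT10 (adjusted p = 0.344) and 0.41 ± 0.12 at ZT22 (adjusted p = 0.0322). The sums of macrophage, fibroblast and red cell markers overlapped between genotypes at both times, and none of the listed markers was at 0. Their part in the results was not tested.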

How the data were processed

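Tibialis anterior RNA from 12 libraries was analysed from 1 deposited table. The authors deposited FPKM per gene and library, with their own log2 fold changes, p-values and q-values per comparison. HISAT2, HTSeq, DESeq2 1.8.2 and the builds GRCm38 and mm10 are named in the submitters' processing notes, with no role or order; annotation, strandedness and depth: not given in the sources used here. Of 14583 entries, 82 were empty and 230 were exact repeats, leaving 14270 genes; Mrps10 and Mrps23 were listed with 2 identical entries and counted once. No library column was left unused.

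Values were taken as log2(FPKM + 1). The 9953 genes whose mean reached 1 FPKM were fitted in limma 3.58.1 (R 4.3.3) with 4 group means over 12 libraries and an intensity trend, and p-values were adjusted by Benjamini-Hochberg over all genes of a comparison; an adjusted p under 0.05 was called. FPKM are not counts, so no count model was used, and a fold change on this scale understates that of low genes. The procedure was tested on simulated data. Transcript length is the median of protein-coding GENCODE M21 transcripts (GRCm38). Pseudogene copies were searched with BLAST+ 2.17.0. Promoter sequences are from RefSeq (GRCm38.p6).

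Named genes are the 6 with the smallest adjusted p per direction, the 5 highest and 3 lowest in level, and members with a particular role; other genes singled out were chosen after their values were seen. The members and lists were chosen with earlier results of these data known. Alternatives were a pseudocount of 0.1, no filter, robust empirical Bayes, a replicate block, a fit of the compared groups alone, median-of-ratios scaling, removal of a transcript length trend (lowess span 0.3) and leaving out each library; scaling to equal summed FPKM was added after seeing the data.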

Additional observations from a re-analysis of the deposited data

Results flagged for a closer look

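For 4 genes every KO library lay above every WT library at ZT10 and below every WT library at ZT22, which is 5.13% of the 78 members against 0.633% of all genes tested. Mrpl28 differed by 0.18 at ZT10 and -0.41 at ZT22 on the log2(FPKM + 1) scale, and the difference between times was -0.60 ± 0.13 (limma, unadjusted p = 0.000475, adjusted p = 0.0729). Mrpl55 differed by 0.30 and -0.22, with a difference between times of -0.51 ± 0.11 (unadjusted p = 0.000629, adjusted p = 0.0763). Mrps7, of the small-subunit head, differed by 0.20 and -0.27, with a difference of -0.47 ± 0.11 (unadjusted p = 0.000726, adjusted p = 0.0827). Mrpl46 differed by 0.21 and -0.32, with a difference of -0.52 ± 0.14 (unadjusted p = 0.00292, adjusted p = 0.118), and 12.2% of its exon bases are shared with Mrps11 on the opposite strand. None of the 4 passed after adjustment over all genes tested.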

How the results depend on the processing

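The count of genes called in KO against WT at ZT10 (6) was 0 with only the groups compared and 10 with the length trend removed, and 1 to 14 without single libraries, including 0 higher and 1 lower without WT ZT10 replicate 2; its median of 0.06 was 0.12 under median-of-ratios scaling, 0.00 with equal summed FPKM and 0.02 to 0.11 without single libraries. At ZT22 the count (21) was 12 under median-of-ratios scaling and 11 to 27 without single libraries, all lower in the latter, and the median was -0.19 to -0.15. Over time in WT the count (10) was 25 under median-of-ratios scaling and 19 with equal summed FPKM, where the split reversed to 17 higher and 2 lower, and 4 to 14 without single libraries, with 3 higher and 2 lower of 5 without WT ZT10 replicate 1. Its median was -0.21 and 0.08 under these scalings and -0.12 to -0.01 without single libraries. Over time in KO the count was 34 to 42 without single libraries, and the median was -0.41 under median-of-ratios scaling, -0.03 with equal summed FPKM and -0.31 to -0.24 without single libraries. The difference between times had 0 to 5 calls. The cause of these changes was not tested.

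A replicate block gave 6, 21, 9, 40 and 0 calls in the 5 comparisons. Of 18 pairs of libraries with the same number, 2 had a correlation of deviations above 0.1 (range -0.134 to 0.21). With 3 libraries in a group, these correlations cannot decide whether the numbers pair the libraries. Depth was estimated only roughly, and by that estimate the member with the fewest fragments had 45 to 63 in a library.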
